A study of Mus musculus with 23 samples.

Results

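The Myc and Max network is a family of basic helix-loop-helix leucine zipper transcription factors that share the partner Max, and 10 of the 47643 genes listed in the data belong to it here. They are Myc, Mycl and Mycn, their partner Max, the repressors Mxd1, Mxi1, Mxd3 and Mxd4, and the larger proteins Mnt and Mga. They were selected on the measured level of Myc, which had been seen higher in IL-38 KO tumors than in WT tumors, and for all members that contrast is described without a test. IL-38 KO tumors with γδ TCR blockade were compared with those same knockout libraries, so Myc is described without a test there too. Anti-IL-38 against its isotype control was not used in the choice, and neither were the values of the other members under blockade.

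Myc, Mycl and Mycn proteins bind DNA as dimers with Max at E-boxes, whose best known form is CACGTG, and activate genes of growth, ribosome production and division. Mxd proteins and Mnt compete for Max and, as dimers with it, recruit Sin3 and histone deacetylases to the same kind of site and repress. Mga pairs with Max in a non-canonical Polycomb complex, and Myc is a frequent driver of mammary cancer.

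The tumors came from female mice on a C57BL/6 background that carry the polyoma middle T oncogene (PyMT), which gives mammary carcinomas, and RNA of whole tumors was measured by 3′ mRNA sequencing in 23 libraries. In the neutralization experiment, PyMT WT mice received 100 µg of IgG1 isotype control (5 libraries) or 100 µg of anti-IL-38 antibody (6 libraries) weekly over 5 weeks. In the γδ TCR experiment, PyMT WT mice received hamster IgG (WT IgG, 4 libraries), and PyMT IL-38 KO mice received the same IgG (KO IgG, 4 libraries) or an anti-γδ TCR antibody (KO with blockade, 4 libraries). These mice were treated weekly for 5 weeks from 13 weeks of age, with 500 µg first and 200 µg later. All mice carried the PyMT oncogene, and the blockade group has no WT counterpart among the libraries analysed here. Because whole tumors were used, fewer cells of a type and less RNA per cell cannot be told apart.

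Il1f10, which encodes IL-38, had 0 reads in all 23 libraries, WT included, which leaves room for at most 0.189 to 0.478 CPM per library, CPM being counts after every library is brought to the same total, so it does not check the genotype labels. The 6 luminal epithelial markers summed to 1339 to 3603 CPM per library. A set of 5 libraries stood apart, namely the 4 with blockade and KO IgG replicate 4. They had 6273049 to 8794202 reads counted on genes against 10138353 to 15879164 in the other 18. Their share of reads on Gm42418, which overlaps a ribosomal RNA repeat, was 11.3 to 20.1% against 2.62 to 5.70%, and that of processed pseudogenes was 1.34 to 2.03% against 0.103 to 0.202%. The log2 fold changes of members that involve KO IgG are therefore given with and without replicate 4.

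The promoters of the members are shown because the network's own binding sequence stood in some of them. The RefSeq table for GRCm38.p6, with windows of 250 bases before to 50 bases after each annotated start, held 9 of the 10 members, and Myc has no entry. CACGTG, which reads the same on both strands, occurred in 2349 of 32851 windows (7.15%) and in 3 of the 11 windows of members. Those 3 belong to Max, Mnt and Mxd4, where the motif began 3, 123 and 219 bases before the start. No window of Mycl, Mycn, Mxd1, Mxd3, Mxi1 or Mga held these letters. The 3 windows are given 5′ to 3′ on the strand of the gene, with CACGTG in capitals.
Max, chr12:76962199-76962498, minus strand: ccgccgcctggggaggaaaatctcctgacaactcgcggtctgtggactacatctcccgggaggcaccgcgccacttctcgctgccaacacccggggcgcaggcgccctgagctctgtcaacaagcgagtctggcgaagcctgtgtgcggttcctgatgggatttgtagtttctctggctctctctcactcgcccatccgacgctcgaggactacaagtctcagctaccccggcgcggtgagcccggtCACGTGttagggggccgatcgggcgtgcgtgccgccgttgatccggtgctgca
Mnt, chr11:74830674-74830973, plus strand: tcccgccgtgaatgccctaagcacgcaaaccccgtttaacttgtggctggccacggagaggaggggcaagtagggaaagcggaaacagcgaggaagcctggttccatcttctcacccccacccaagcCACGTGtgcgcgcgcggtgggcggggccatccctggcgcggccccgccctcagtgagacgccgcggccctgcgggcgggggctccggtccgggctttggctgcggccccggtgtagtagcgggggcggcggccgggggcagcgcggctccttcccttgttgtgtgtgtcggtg
Mxd4, chr5:34187661-34187960, minus strand: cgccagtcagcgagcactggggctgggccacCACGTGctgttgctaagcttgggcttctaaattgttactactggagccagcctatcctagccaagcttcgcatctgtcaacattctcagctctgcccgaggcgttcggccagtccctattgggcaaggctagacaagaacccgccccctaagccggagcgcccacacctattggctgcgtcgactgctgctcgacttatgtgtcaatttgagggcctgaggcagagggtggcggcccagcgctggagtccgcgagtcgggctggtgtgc

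The repressors and Max, not the Myc paralogs, took most of the network's reads. Levels are in CPM over all reads counted on genes, and 3′ reads come from the end of a transcript, so CPM was not divided by length. Capture can still differ between genes, and the order below is of reads. Mxd4 was first with a mean of 356 CPM over the 23 libraries (SD 64.6), which was 34.9 to 64.8% of the reads of all members. Mga followed with 134 (SD 30.7), Max with 87.0 (SD 10.2), Mxi1 with 53.1 (SD 16.1), Mnt with 28.7 (SD 6.77) and Mxd1 with 19.3 CPM (SD 2.64). Each of these was above the next in at least 22 of the 23 libraries. Myc came next with 7.03 CPM (SD 4.24), and only 0.463 to 3.13% of the members' reads were from it. Mycl at 4.20 CPM (SD 4.28) and Mxd3 at 3.74 CPM (SD 1.86) did not differ beyond their spread, as Mycl was above Mxd3 in 10 of 23 libraries. Myc was above Mycl in 17. Mycn, the paralog of neural and embryonic tissue, had 0 to 5 reads per library and was below the filter on low values in every comparison, so 9 of the 10 members were tested.

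Myc, the founding member, was higher in level in the KO IgG tumors than in the WT IgG tumors and those with blockade. It stood at 13.95, 11.7, 19.6 and 11.5 CPM in KO IgG replicates 1 to 4 and at 5.22, 3.67, 4.38 and 5.97 CPM in the 4 WT IgG tumors. All 4 KO IgG tumors were above all WT IgG tumors, and replicate 3 was the highest of the 23 libraries. With blockade, Myc stood at 3.25, 5.37, 7.97 and 3.30 CPM, so every tumor with blockade was below every KO IgG tumor and the range overlapped that of WT. These levels rest on 99 to 312 reads in KO IgG, 47 to 68 in WT IgG and 26 to 50 with blockade.

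**Figure D1:**
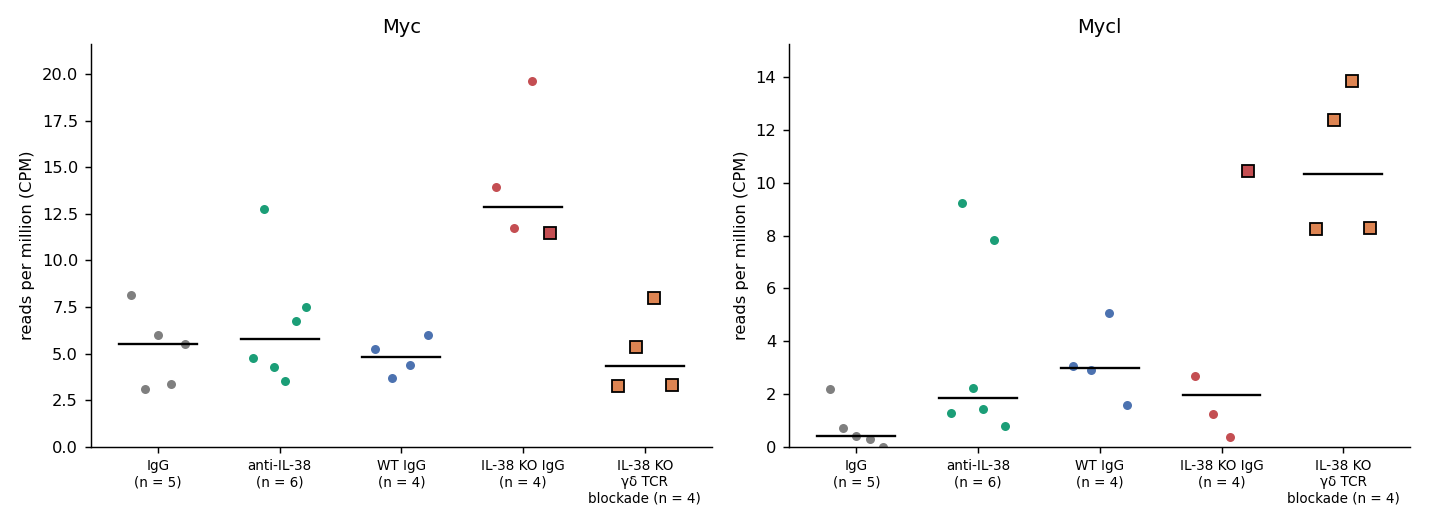
Myc and Mycl in CPM (y axis, linear, from 0) for each of the 23 tumors by group (x axis), with the median as a line. Squares with a black edge are the 5 libraries that stand apart in depth and in reads on Gm42418. For Myc, KO IgG replicate 4 (11.5 CPM) lies with the other KO IgG tumors, and for Mycl (10.4 CPM) it lies among those with blockade.

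In the authors' normalized counts, Myc averaged 169 ± 46.0 (SD, n = 4) in KO IgG and 56.1 ± 10.8 (SD, n = 4) in WT IgG, a log2 fold change of 1.56 (SE 0.24), or 2.95-fold. This is the contrast that chose the members, and it is given as a description. In it, 7.06% of 16563 tested genes had no overlap between the groups, 3.66% with KO above WT, and limma called 1 gene, which was no member (0.00604%). Myc was the only member of the 9 without overlap. Against KO IgG, Myc under blockade averaged 52.3 ± 27.1 (SD, n = 4) against 130 ± 35.9 (SD, n = 4) in the separately normalized table, a log2 fold change of -1.39 (SE 0.35). Here 9.54% of 16481 genes had no overlap, 4.98% with blockade below. Without KO IgG replicate 4 the 2 differences in Myc were 1.64 (SE 0.26) and -1.45 (SE 0.37). Among the 5 libraries that stood apart, the Myc level was 11.5 CPM in the KO IgG tumor and 3.25 to 7.97 CPM in those with blockade.

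Anti-IL-38 gave no such separation in Myc. The 6 treated tumors ranged from 3.52 to 12.8 CPM with a median of 5.76, and the 5 isotype controls stood at 8.16, 3.10, 6.01, 3.36 and 5.51 CPM. A single treated tumor, replicate 2, was above all controls and within the KO IgG range, and no member lacked overlap in this comparison (1.04% of all genes did). The log2 fold change was 0.34 (SE 0.34, adjusted p = 0.729 in limma, two-sided exact permutation p = 0.398). No gene of 16002 passed an adjusted p of 0.05 in this comparison (percent called 0), while 1682 had an unadjusted p under 0.05 (10.5%), and edgeR called 0 and DESeq2 75 genes.

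Mycl, the paralog first found in lung carcinoma and expressed in dendritic cells, had the largest coefficient of variation of the tested members in 4 of the 5 groups, 45.8 to 124.8% there and 26.8% with blockade. In the neutralization experiment it stood at 2.18, 0.722, 0.410, 0.299 and 0 CPM in the isotype controls, and the anti-IL-38 tumors ranged from 0.789 to 9.24 CPM with a median of 1.83. Treated replicates 2 and 5 were far above the rest at 9.24 and 7.83 CPM, and 3 of the other 4 were below the highest control. These 2 tumors also had the highest sums of the 4 basal cell markers in this experiment, at 1479 and 902 CPM. The sums were 66.2 to 355 CPM in the other 4 treated tumors and 88.6 to 335 CPM in the controls. Acta2 outweighed Krt14 and Trp63 in these sums, with means of 5705 (SD 6362), 316 and 112 normalized counts with anti-IL-38. Of the 4 markers, 2 had a positive and 2 a negative log2 fold change, with Acta2 at 0.90, Krt14 at -0.92 and Trp63 at -0.32. The sum therefore does not stand for basal cells alone, and their part in the Mycl level was not tested. The log2 fold change of Mycl was 2.47 (SE 0.82), which did not pass (adjusted p = 0.418 in limma), and the exact permutation p was 0.0260 before any correction over the 10 members so tested. All 6 treated tumors were above the median of the controls. The controls held 0 to 28 Mycl reads each, and the log2 fold change was 1.77 to 3.02 across the alternatives.

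In the γδ TCR experiment Mycl did not follow Myc. It stood at 3.05, 2.89, 5.07 and 1.58 CPM in WT IgG and at 2.69, 1.23, 0.378 and 10.4 CPM in KO IgG, where replicate 4 was far above the other 3. With blockade it stood at 8.24, 12.4, 13.9 and 8.30 CPM. Blockade tumors were all above KO IgG replicates 1 to 3, and 25.0% of 16481 genes lacked overlap there in either direction in normalized counts. For Mycl, replicate 4 lay within the range of blockade. For blockade against KO IgG the log2 fold change was 2.50 (SE 0.77), which did not pass (adjusted p = 0.0930 in limma, exact permutation p = 0.0857, n = 4 and 4, smallest possible 0.0286). Without KO IgG replicate 4 it was 3.30 (SE 0.52) and passed, with an adjusted p of 0.00119 in limma. In IL-38 KO against WT the described value of Mycl was -0.52 with replicate 4 and -1.31 (SE 0.59) without it.

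Max, the partner of all the others, had the smallest coefficient of variation of the members over all libraries, 11.8%. Its level ranged from 62.9 to 101 CPM over the 23 libraries. The 4 KO IgG tumors stood at 85.4, 82.1, 82.8 and 98.4 CPM and the 4 WT IgG tumors at 91.8, 77.5, 91.3 and 98.1 CPM, with the ranges overlapping. The log2 fold changes were -0.03 (SE 0.12, adjusted p = 0.942 in limma) for anti-IL-38 and -0.01 (SE 0.13, described only) for IL-38 KO. With blockade Max stood at 101, 101, 94.5 and 94.6 CPM, above KO IgG replicates 1 to 3, and replicate 4 lay within their range. The log2 fold change of normalized counts was 0.35 (SE 0.13, adjusted p = 0.151 in limma, exact permutation p = 0.0571). Without replicate 4 it was 0.43 (SE 0.13) and passed (adjusted p = 0.0496 in limma), and the described value for IL-38 KO was -0.08 (SE 0.12). Myc reads as a percentage of Max reads had a median of 15.3% in KO IgG (11.7 to 23.7%), 5.24% in WT IgG (4.73 to 6.09%) and 4.39% with blockade (3.22 to 8.43%).

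Mxi1, an Mxd repressor also known as a Myc antagonist in growth control, set the 5 libraries that stood apart against all others. With blockade it stood at 76.2, 64.5, 98.0 and 82.4 CPM, and KO IgG replicate 4 stood at 80.3 CPM. The other 18 libraries lay between 37.4 and 55.2 CPM, with no overlap, as was so in the same direction for 6.47% of 17066 genes. Within KO IgG, replicates 1 to 3 stood at 45.7, 41.9 and 51.4 CPM.

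With blockade the log2 fold change of Mxi1 was 0.76 (SE 0.24), which did not pass (adjusted p = 0.104 in limma, exact permutation p = 0.0571). Without KO IgG replicate 4 it was 0.98 (SE 0.19) and passed (adjusted p = 0.0054 in limma). For anti-IL-38 it was -0.12 (SE 0.12, adjusted p = 0.726 in limma), and for IL-38 KO it was 0.19 (SE 0.20) with replicate 4 and -0.02 (SE 0.14) without it, given as a description.

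The other Mxd genes showed no difference that passed. Mxd4, linked to differentiated and resting cells, stood at 316, 446, 319 and 234 CPM in KO IgG and at 261, 366, 299.9 and 283 CPM with blockade, and the 2 ranges overlapped. Its log2 fold change was 0.08 (SE 0.19, adjusted p = 0.845 in limma) with blockade, 0.21 (SE 0.15, adjusted p = 0.605) with anti-IL-38 and -0.23 (SE 0.18, described only) in IL-38 KO. Mxd1, formerly Mad1 and induced in differentiation, ranged from 14.4 to 25.1 CPM over all libraries, with log2 fold changes of 0.10 (SE 0.20) with blockade and 0.10 (SE 0.14) with anti-IL-38, neither of which passed (adjusted p = 0.819 and 0.808 in limma). Without KO IgG replicate 4 the blockade values were -0.05 (SE 0.17) for Mxd4 and 0.18 (SE 0.21) for Mxd1, which did not pass either (adjusted p = 0.905 and 0.652 in limma).

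Mxd3, the Mxd member tied to the S phase of cycling cells, was the least abundant of the 4. It stood at 2.95, 3.54, 2.25, 3.51 and 9.38 CPM in the isotype controls and between 2.14 and 7.15 CPM with anti-IL-38, and the groups overlapped. Its lowest level was 0.624 CPM, 5 reads, in blockade replicate 1, and the others with blockade stood at 5.02, 2.39 and 3.30 CPM. The log2 fold changes were -0.06 (SE 0.40) for anti-IL-38 and -0.32 (SE 0.55) for blockade, and neither passed (adjusted p = 0.969 and 0.788 in limma). For blockade without KO IgG replicate 4 it was -0.11 (SE 0.57, adjusted p = 0.931 in limma).

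Mnt, the broadly expressed antagonist of Myc, had a pattern like that of Mxi1 in the knockout tumors. It stood at 26.1, 26.6, 22.2 and 39.9 CPM in KO IgG and between 32.2 and 40.5 CPM with blockade. Replicate 4 again lay within the range of blockade and the other 3 below it. The log2 fold change was 0.53 (SE 0.22), which did not pass (adjusted p = 0.190 in limma, exact permutation p = 0.0857), and it was 0.72 (SE 0.18, adjusted p = 0.0211) without replicate 4. High levels were also seen outside the 5 libraries, in isotype controls 1 and 5 at 42.5 and 36.3 CPM.

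Mga stood at 211, 159, 110.1 and 171 CPM in KO IgG and at 166, 152, 108 and 156 CPM with blockade. The ranges overlapped, with a log2 fold change of 0.03 (SE 0.20, adjusted p = 0.946 in limma), and of 0.09 (SE 0.21, adjusted p = 0.835) without replicate 4. For anti-IL-38 it was -0.06 (SE 0.12, adjusted p = 0.874), and for Mnt -0.11 (SE 0.18, adjusted p = 0.839). In IL-38 KO against WT the described log2 fold changes were 0.13 (SE 0.20) for Mga, 0.17 (SE 0.19) for Mnt, -0.19 (SE 0.16) for Mxd1 and -0.28 (SE 0.28) for Mxd3, and each of these genes overlapped between the groups. Without replicate 4 they were 0.09 (SE 0.21) for Mga, -0.01 (SE 0.15) for Mnt, -0.26 (SE 0.16) for Mxd1, -0.48 (SE 0.27) for Mxd3 and -0.09 (SE 0.16) for Mxd4.

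**Figure D2:**
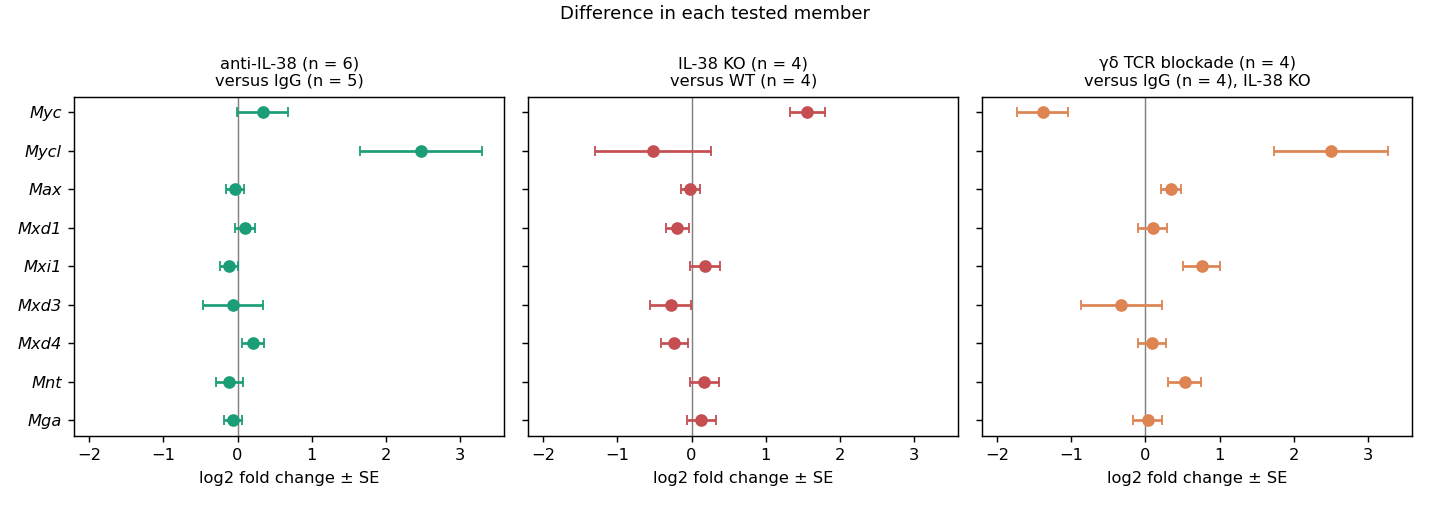
Log2 fold change (x axis) of each of the 9 tested members (y axis) in the 3 comparisons, with the standard error of the fit as bars. Myc is at 0.34, 1.56 and -1.39 from left to right, Mycl at 2.47, -0.52 and 2.50, and the others lie between -0.32 and 0.76.

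Under blockade, 7 of the 9 tested members had a positive and 2 a negative log2 fold change, with a median of 0.10 against 0.02 over all genes. None of the 8 members that were tested passed (percent called 0 of 16481 genes), and Mycl, Mxi1, Max and Mnt had an unadjusted p under 0.05, as did 21.7% of all genes. Without KO IgG replicate 4, limma called 2357 of 16480 genes (14.3%), and 4 of the 8 members that were tested, Mycl, Mxi1, Max and Mnt, were among them. Against KO IgG replicates 1 to 3 alone, blockade and the difference in depth and reads on Gm42418 cannot be told apart. With all 4 KO IgG libraries they are still largely confounded, as only replicate 4 shares that depth and those reads. In normalized counts 4125 of 16481 genes (25.0%) showed no overlap between blockade and KO IgG replicates 1 to 3. For 52.9% of these genes replicate 4 lay within the range of blockade. Mycl, Mxi1, Mnt, Max and Mlx were on that side, and Myc was not.

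Mlx, the Max-like protein that pairs with the glucose sensors Mlxip and Mlxipl, showed the same split. It stood at 80.2, 76.0, 100.6 and 68.5 CPM with blockade and at 25.7, 23.8, 40.0 and 82.7 CPM in KO IgG. The other 18 libraries had no more than 42.4 CPM, so Mlx and Mxi1 both separated the 5 libraries fully. The log2 fold change was 1.27 (SE 0.37, adjusted p = 0.0848 in limma). Without replicate 4, 1 gene of the 3 in this extended network, Mlx, passed, against 14.3% of all genes. Mlxip and Mlxipl had log2 fold changes of -0.11 (SE 0.14) and 0.16 (SE 0.34), which did not pass (adjusted p = 0.702 and 0.841 in limma). In the anti-IL-38 comparison the 3 genes had log2 fold changes between -0.30 and 0.13, and none passed.

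**Figure D3:**
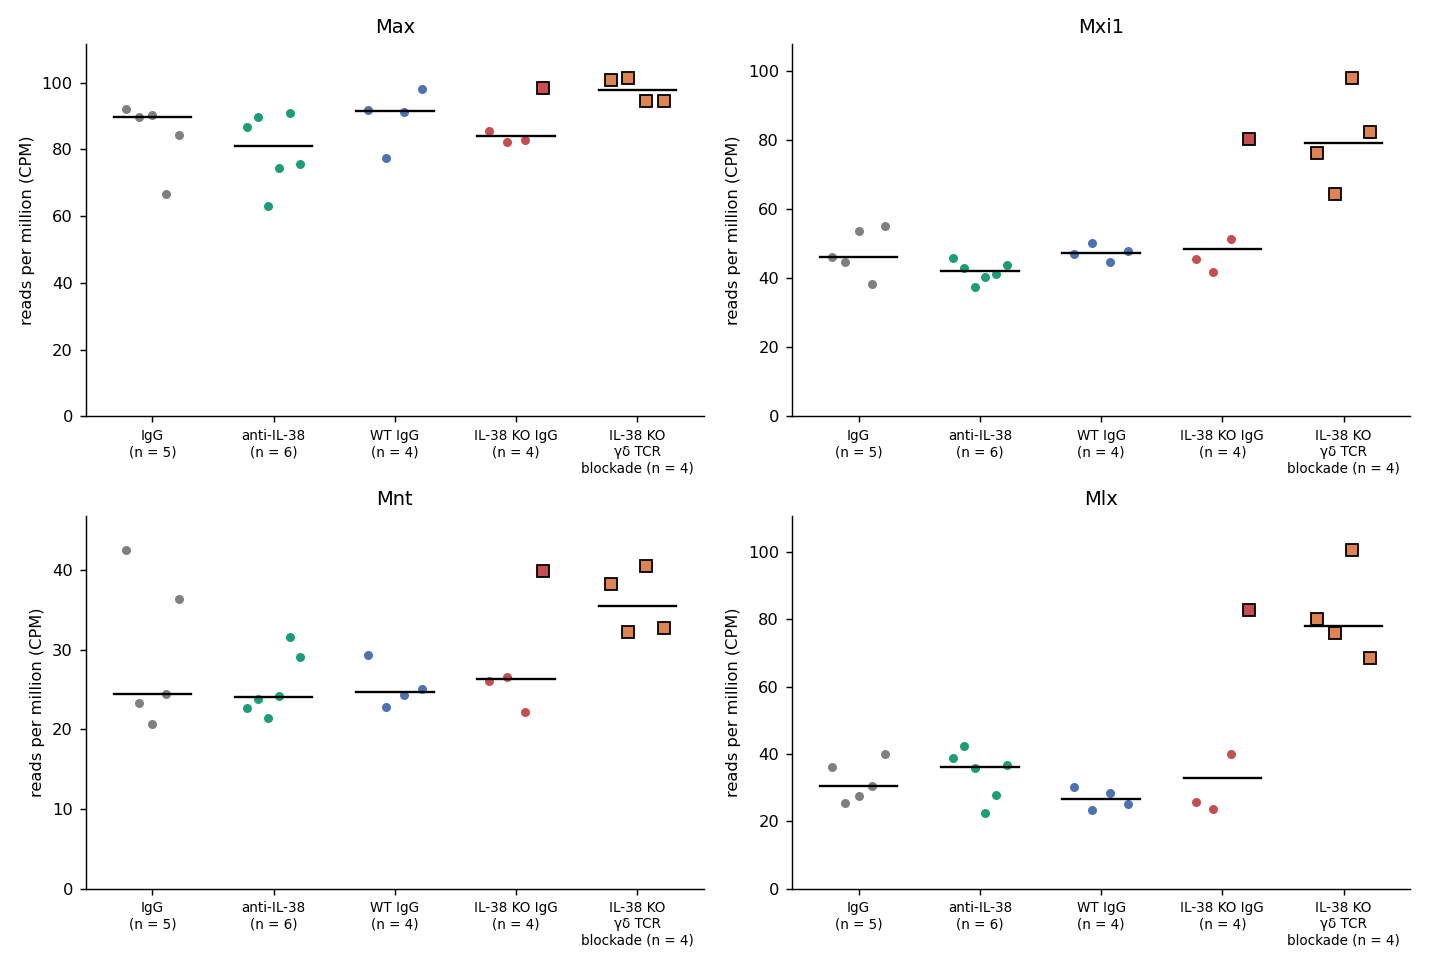
Max, Mxi1, Mnt and Mlx in CPM (y axis, linear, from 0) for each tumor by group (x axis), with the median as a line. Squares with a black edge are the 5 libraries that stand apart. In Mxi1 and Mlx they lie above all other tumors, at 64.5 CPM or more and 68.5 CPM or more.

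The list of 64 Myc target genes, of ribosome production, nucleotide synthesis and metabolism and also of replication and mitosis, did not separate KO from WT. The list was written from general knowledge, and 15 of its 58 genes with a promoter window held CACGTG (25.9%), against 8.09% of all genes with a window. In IL-38 KO, 31 targets were higher and 33 lower than in WT, with a median log2 fold change of -0.02 against 0.01 over all genes, and without replicate 4 the counts were 26 and 38. By the rule for naming genes these were Tmem97 at 0.62 (SE 0.17), the folate transporter Slc19a1 at 0.66 (SE 0.26) and the mitotic kinase Plk1 at 0.37 (SE 0.15). These values are given as a description.

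Under blockade, 49 of the 64 targets were lower and 15 higher, with a median of -0.17 against 0.02 over all genes, and 51.9% of all genes were higher. No target passed, and an unadjusted p under 0.05 was found for 10, 9 of them lower, against 21.7% of all genes in either direction. Plk1 was at 379 ± 56.1 normalized counts with blockade and 700.1 ± 138 in KO IgG (SD, n = 4 and 4), a log2 fold change of -0.87 (SE 0.17, adjusted p = 0.0657 in limma). The centriole kinase Plk4 was at -0.95 (SE 0.27, adjusted p = 0.0776), and the replication helicase subunit Mcm4 at -0.88 (SE 0.26, adjusted p = 0.0833). Without replicate 4, 48 targets were lower and limma called 3 of the 64, all lower, against 14.3% of all genes in either direction.

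With anti-IL-38 the counts were the same, 49 targets lower and 15 higher, with a median of -0.14 against 0.00 over all genes. No target passed, and 12 reached an unadjusted p under 0.05, 11 of them lower, against 10.5% of all genes in either direction. The helicase subunit Mcm5 was at 526 ± 74.7 (SD, n = 6) against 905 ± 149 (SD, n = 5) normalized counts, a log2 fold change of -0.78 (SE 0.14, adjusted p = 0.304 in limma). The mitochondrial chaperonin genes Hspd1 and Hspe1 were both at -0.41 (SE 0.12 each, adjusted p = 0.401 and 0.408). Summed over the list, targets took 3876 to 4663 CPM with anti-IL-38 and 4435 to 6163 CPM in the isotype controls.

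The 14 proliferation genes, like Myc, were lower with blockade than in KO IgG, but unlike Myc their sums overlapped between KO IgG and WT IgG. Their sum was 815, 917, 985 and 1068 CPM in KO IgG, 834.2 to 907 CPM in WT IgG and 670.2, 451, 597 and 482 CPM with blockade. Every tumor with blockade was below every KO IgG tumor, and KO IgG replicate 4 was the highest of its group. In IL-38 KO 13 of 14 were higher than in WT, with a median log2 fold change of 0.17, and without replicate 4 the count was 12 and the median 0.08.

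Under blockade all 14 had a negative log2 fold change, with a median of -0.76, and none passed the threshold. An unadjusted p under 0.05 in limma was found for 13, against 21.7% of all genes in either direction. The replication clamp Pcna was at 170 ± 44.9 against 388 ± 71.99 normalized counts (SD, n = 4 and 4), a log2 fold change of -1.21 (SE 0.22, adjusted p = 0.0657), and the spindle checkpoint kinase Bub1 was at -1.31 (SE 0.28, adjusted p = 0.0657). Without replicate 4 all 14 were still lower, with a median of -0.67, and limma called 2 of the 14, against 14.3% of all genes. With all 4 KO IgG tumors DESeq2 called 5 of the 14, all lower, against 6.27% of all genes. With anti-IL-38 all 14 were lower as well, with a median of -0.35, and none passed the threshold. An unadjusted p under 0.05 was found for 5 of them, against 10.5% of all genes in either direction. Their sum was 685 to 947 CPM with anti-IL-38 and 1067, 885, 851, 1051 and 2024 CPM in isotype controls 1 to 5. The 2 ranges overlapped, and isotype control 5 was far above the other controls. Birc5, or survivin, was at -0.63 (SE 0.17, adjusted p = 0.376 in limma).

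**Figure D4:**
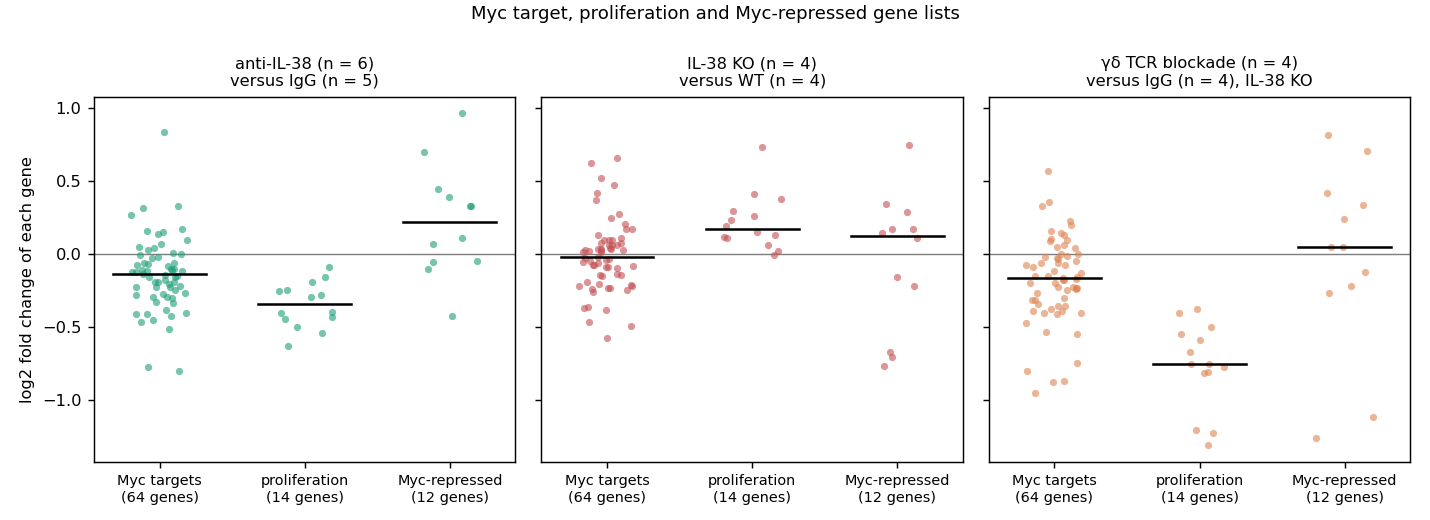
Log2 fold change (y axis) of each gene of 3 lists (x axis) in the 3 comparisons, with the list's median as a line. The median of the 14 proliferation genes is -0.35, 0.17 and -0.76 from left to right, and that of the 64 Myc targets is -0.14, -0.02 and -0.17.

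The 12 genes that Myc is known to repress showed no common direction. In IL-38 KO 7 were higher and 5 lower, among them the differentiation factor Klf4 at -0.67 (SE 0.17) and the laminin receptor subunit Itga6 at 0.75 (SE 0.23). Under blockade 7 were higher and 5 lower too, and the cell cycle inhibitors Cdkn1c (-1.11, SE 0.34, adjusted p = 0.0902 in limma) and Cdkn1a (-1.26, SE 0.41, adjusted p = 0.109) did not pass. Ndrg1 went the other way, at 0.81 (SE 0.31, adjusted p = 0.158 in limma), and did not pass either. Without KO IgG replicate 4 the counts under blockade were 8 and 4, and limma called 3 of the 12, 1 higher and 2 lower, against 14.3% of all genes. With anti-IL-38 8 were higher, among them Ndrg2 at 0.96 (SE 0.25, adjusted p = 0.376) and Cdkn1b at 0.33 (SE 0.14, adjusted p = 0.460).

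Genes whose products work with or against the network gave no call in limma in the 3 comparisons with all libraries. Under blockade without KO IgG replicate 4, limma called 1 of 14 cofactors, 1 of 11 corepressors and 2 of 15 regulators of stability, all higher, against 14.3% of all genes. Of 14 Myc cofactors, 8 were lower and 6 higher under blockade, where Skp2, a ubiquitin ligase subunit and Myc cofactor, was at -0.81 (SE 0.29, adjusted p = 0.137). Skp2 was at 0.57 (SE 0.26) in IL-38 KO, described only, and at -0.55 (SE 0.24, adjusted p = 0.455) with anti-IL-38. Of 11 corepressor genes of Mxd and Mnt, 6 were lower in IL-38 KO, where the deacetylase Hdac1 stood at 299 ± 75.4 against 531 ± 67.6 normalized counts (SD, n = 4 and 4), a log2 fold change of -0.86 (SE 0.21). Of 15 regulators of Myc protein stability, the deubiquitinase Usp28 was at 0.82 (SE 0.22, adjusted p = 0.0699) and the kinase Aurka at -0.61 (SE 0.21, adjusted p = 0.126) under blockade. The annotation lists 29 genes within 2 Mb of Myc, and 5 or 6 of them passed the filter on low values. Its nearest expressed neighbor, the noncoding gene Pvt1, did not share the KO difference, with 6.10, 8.02, 5.67 and 2.90 CPM in KO IgG and 7.05, 6.32, 6.22 and 6.498 CPM in WT IgG, and a log2 fold change of -0.26 (SE 0.29). The lowest of these, 2.90 CPM (25 reads), was in KO IgG replicate 4, which stood apart, and replicates 1 to 3 overlapped WT IgG.

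Markers of other cell types differed in level between the groups, and their part in the results was not tested. The 6 macrophage markers summed to 7112, 7312, 10212 and 1153 CPM in KO IgG and to 695 to 1210 CPM with blockade, so replicate 4 lay within the range of blockade, and none of the 6 was at 0 in these 8 libraries. In WT IgG the sum was 7922 to 12923 CPM, and in the neutralization experiment it was 11227 to 19071 CPM in isotype controls and 8908 to 13556 CPM with anti-IL-38. Under blockade 5 of the 6 were lower, with Lyz2 at -4.32 (SE 0.82, adjusted p = 0.0657 in limma). DESeq2 called 5, all lower, against 6.27% of all genes. Without replicate 4 all 6 were lower, with a median log2 fold change of -1.64, and limma called 5, against 14.3% of all genes. The 4 skeletal muscle markers summed to 10.2 to 315 CPM in KO IgG against 1.22 to 55.4 CPM in WT IgG, and to 50.8 to 605 CPM with blockade. The 5 T cell markers summed to 0.744 to 16.6 CPM in all groups. Of the 5 B and plasma cell markers, Cd79a and Ms4a1, which define B cells, were at 0 in most libraries. The sum of these 5 was 4.66 to 57.0 CPM in KO IgG, with replicate 4 the highest. It was 2.46 to 5.38 CPM in WT IgG and 6.85 to 14.6 CPM with blockade.

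**Figure D5:**
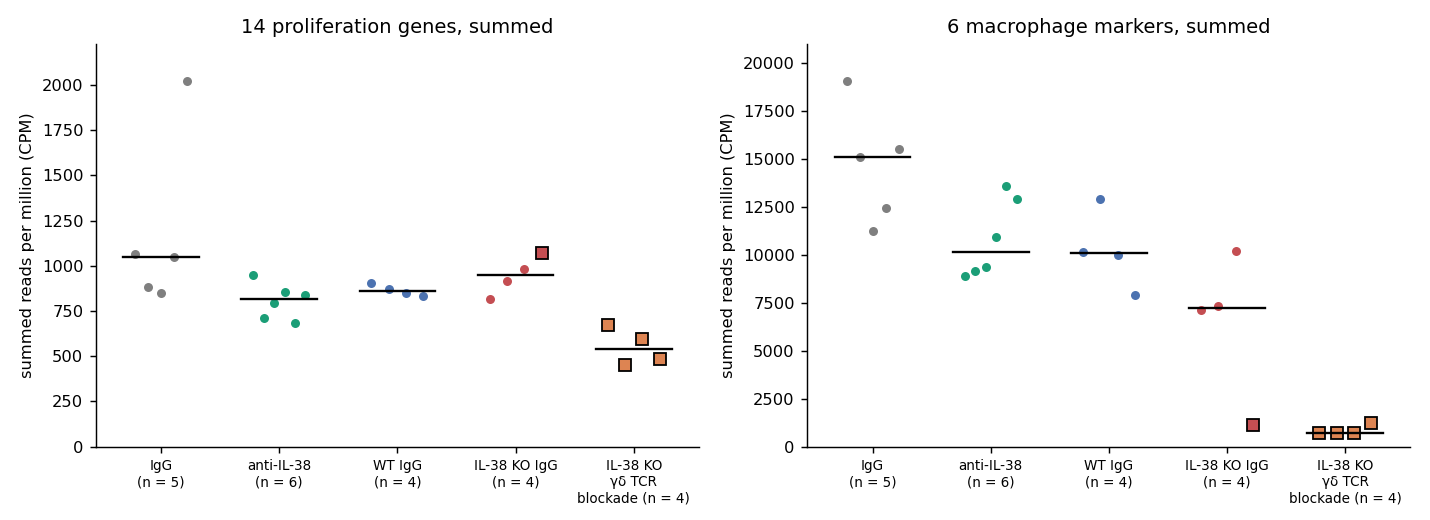
Summed CPM (y axis, linear, from 0) of the 14 proliferation genes and the 6 macrophage markers for each tumor by group (x axis), with the median as a line. Squares with a black edge are the 5 libraries that stand apart. KO IgG replicate 4 is the highest of its group for proliferation (1068 CPM) and the lowest for macrophage markers (1153 CPM).

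Likeness to Myc was read over the 19 libraries of the larger table after each group's mean was subtracted, among 13608 genes. The closest were Lgmn (Pearson r = 0.91), Dse (0.90), Washc3 (0.90), Fam136a (0.88) and Dram1 (0.85), and these values are a description. The libraries differ in depth and tissue makeup and include KO IgG replicate 4, which stood apart. Values of r without that library were not computed. Among members, Max was closest (r = 0.45), followed by Mxd3 (0.31) and Mnt (0.23), with Mga lowest (-0.29). Pvt1 had r = -0.21.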

How the data were processed

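RNA of whole PyMT tumors was measured in 23 libraries with QuantSeq 3′ mRNA-Seq. The authors deposited normalized counts, used here as signal values and made by dividing the reads of each library by 1 size factor, separately in a table of 19 and a table of 8 libraries that share the 4 KO IgG libraries. The submitters' processing notes name STAR, HTSeq, DESeq2 and GRCm39, without their roles. Dividing by the value of 1 read gave whole reads for 100% of values (tolerance 0.0001%), except that WT IgG replicate 1 cannot be judged, and these reads gave CPM and depth (6273049 to 15879164). Limits of 3 counts cover counting error only, as reads carry no molecular identifiers. Symbols and neighbors came from GENCODE M21 on GRCm38 (47224 of 47643 identifiers), another build. The only coordinates given are therefore those of the promoter windows, on GRCm38.p6.

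Genes whose normalized counts averaged 5 or more were tested with limma 3.58.1 (R 4.3.3, trend, two-sided) on log2(normalized count + 1) within each table, over the libraries compared only, with Benjamini-Hochberg adjustment over all genes and a threshold of 0.05. Fold changes are on that scale and understate those of low genes. Members were also compared by two-sided exact permutation tests. Alternatives were pseudocounts of 0.5 and 5, other filters, TMM, edgeR 4.0.16 and DESeq2 1.42.0 on the recovered reads, a block for the replicate number, and leaving out each library; CPM without Gm42418 was added after seeing the data. On simulated counts limma recovered 187, 135 and 146 of 200 genes changed 2-fold, with 6, 3 and 2 false calls, for anti-IL-38, IL-38 KO and blockade over 15877, 16510 and 16430 genes. There all genes had the same spread, no changed gene was a low one, and no library stood apart in composition. These counts therefore check the code and do not give the power for the members.

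The members and lists were chosen with earlier results of these data known, and the lists from general knowledge. Named genes are the members, Mlx, Mlxip and Mlxipl, up to 3 genes of a list with the smallest p in a comparison, genes within 2 Mb of Myc, and the 5 genes most like Myc; 1 gene of the rule is not reported here. Each library is labelled as a separate sample, but whether each is a separate animal is not stated, so p-values measure the spread between samples. No pair within a group was a duplicate (chi-square per degree of freedom 17.1 to 138 over 43 pairs).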

Additional observations from a re-analysis of the deposited data

Results flagged for a closer look

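Of 50 groups of member levels checked, 2 had a library far from the others, and chance gives about 5% of such groups. Mxd3 stood at 9.38 CPM in isotype control replicate 5 against 2.25 to 3.54 CPM in the other 4. Mycn stood at 0.233 CPM, 3 reads, in isotype control replicate 1, against 0.0683 to 0.0747 CPM, 1 read each, in the other 4.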

How the results depend on the processing

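In IL-38 KO against WT and in blockade against KO IgG, the log2 fold change of Myc was 1.39 to 1.67 and -1.69 to -1.20 over 16 alternatives each. For anti-IL-38, 162 of 171 values of members kept their direction and stayed short of the threshold. There, Mxd3 was at 0.0117 with the replicate block, and leaving out 1 library gave -0.26 to 0.27 for Mxd3, -0.21 to 0.020 for Mnt and -0.12 to 0.0065 for Max. Under blockade, Mga was at -0.011 with TMM and -0.0203 with edgeR, and leaving out 1 library gave -0.14 to 0.16 for Mga, -0.019 to 0.22 for Mxd1, -0.67 to 0.24 for Mxd3 and -0.046 to 0.23 for Mxd4. In IL-38 KO against WT the described values of Mycl (-1.31 to 0.27), Max (-0.08 to 0.03), Mxi1 (-0.02 to 0.31) and Mnt (-0.01 to 0.28) took both signs.

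DESeq2 called 75 genes for anti-IL-38, 305 for IL-38 KO and 1033 under blockade, with 1 member, Myc, among the last 2 sets, whose contrast chose it or shares its libraries. edgeR called 0 in each. limma called 1 gene for IL-38 KO, Gm10093, named after its values were seen, and 0 with edgeR and with the replicate block. Leaving out 1 library gave 0 to 6 genes for anti-IL-38 (6 without isotype control replicate 3). For IL-38 KO it gave 0 to 7, with 7 without WT IgG replicate 3 or KO IgG replicate 4, and 4 without KO IgG replicate 1. It gave 0 there without WT IgG replicate 1 or 2 or KO IgG replicate 2 or 3. Under blockade it gave 0 to 2357 genes (2357 without KO IgG replicate 4, 14.3% of all genes), with 0 to 5 members called there. The 5, without KO IgG replicate 4, were Mycl, Mxi1, Max, Mnt and Myc. The call of Myc is no test, as this contrast shares the knockout libraries that chose it. The cause of these changes with the library left out was not tested. With the replicate number as a block anti-IL-38 gave 1 gene. Same-numbered libraries did not deviate together (r = -0.17 to 0.07), so the numbers do not pair the samples, and the block changed no call of a member.

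Leaving Gm42418 out of the total raised the mean CPM with blockade of Max to 114, of Mxd4 to 353 and of Mnt to 42.1, and that of Mxi1 in WT IgG to 49.8, each by more than 1 SD between tumors. Myc with blockade was then 3.73 to 9.97 CPM. The 26 to 50 Myc reads per library with blockade and the 0 to 28 Mycl reads in isotype controls limit those levels.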
